A study of Homo sapiens with 32 samples.

Results

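Of the 287404 bins of 10 kb into which chromosomes 1 to 22 of build hg38 were divided, 3048 (1.06%) lost called H3K27me3 coverage in MDA-MB-231 cells treated with an EZH2 inhibitor. MDA-MB-231 is an established human line of triple-negative breast cancer. Bins were chosen by island coverage: a bin was selected when the mean percent of its length lying in H3K27me3 islands was at least 35 points lower over the 8 libraries with the EZH2 inhibitor than over the 8 libraries without it. The loss in these bins is therefore how they were chosen, and it is described below without a test. They are 3.47% of the 87730 bins with a mean coverage from 5 to 95%, a share that follows from the choice. To lose 35 points a bin must be at least 35% covered without the inhibitor; 70491 bins met that condition, of which the selected bins made up 4.32%, and the other 67443 are called the other covered bins.

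All cells were MDA-MB-231, and the treatments lasted 24 h. The EPZ group received the EZH2 inhibitor alone (EP7 in the sample titles), the combo group EPZ together with the p38 MAP kinase inhibitor, the P38i group the p38 inhibitor alone, and the control group no treatment according to the labels. Each group had 4 H3K27me3 libraries, made by ChIPmentation (chromatin immunoprecipitation with tagmentation on the beads) from a fixed pellet of cells per condition. The 16 matching IgG libraries were not analysed here. Nothing in the labels tells whether replicates came from separate cultures, so the p-values below measure the spread between these samples only, which may be technical.

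EZH2 is the catalytic subunit of Polycomb repressive complex 2 and places methyl groups on lysine 27 of histone H3. The trimethylated form, H3K27me3, lies over silent genes and over wide gene-poor stretches of chromatin, and it is known for holding lineage genes of other tissues off. Existing methyl groups are diluted when DNA is replicated, and an inhibitor of EZH2 limits their renewal. The p38 kinases are stress-activated protein kinases, and the series title concerns p38 signalling and EZH2 phosphorylation.

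The deposited islands have a start and an end and no score, and the read depth is unknown, so a value says how much of a bin was called, not how much of the mark it held. The islands of a library covered 462 to 571 Mb of the 22 chromosomes in EPZ, 513 to 599 Mb in combo, 520 to 656 Mb in P38i and 473 to 650 Mb in control. Control replicate 4 and P38i replicate 4 were the shortest libraries without the inhibitor, with 473 and 520 Mb. The summary of the selected bins, a part of the named bins and the main shares by list and chromosome are also given without both. EPZ replicates 1 and 2 (462 and 472 Mb) and combo replicates 1 and 2 (513 and 518 Mb) were kept, though shorter than P38i replicate 4. Libraries were thus left out only on the side without the inhibitor, where these held the lowest coverage of the selected bins. The mean loss therefore grows by that omission. Of the genes this line is known to express, VIM, CD44, EGFR, AXL, SPARC and ANXA1 had no island in any of the 16 libraries. Of luminal and epithelial genes that it is known to lack or hold low, GATA3, CDH1 and EPCAM had none either, while 95.2% of PGR, 58.5% of FOXA1 and 10.3% of ESR1 was covered on average, so that islands did not mark every gene of that kind.

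The bins whose values are followed most closely hold the starts of genes. Of 72 protein-coding genes whose promoter window (250 bases before to 50 after the start, RefSeq, GRCh38.p14) lay wholly in a selected bin, 4 of the 6 with the largest losses are printed, 5' to 3' on the gene's strand, with each CG dinucleotide in capitals. They are UGT1A1 (the liver enzyme that conjugates bilirubin) at chr2:233760020-233760319 on the plus strand, RGS13 (a regulator of G protein signalling of B cells and mast cells) at chr1:192635897-192636196 on the plus strand, CXCL9 (a chemokine induced by interferon gamma) at chr4:76007460-76007759 on the minus strand, and CGA (the alpha subunit shared by the glycoprotein hormones) at chr6:87095057-87095356 on the minus strand. They show how few CG dinucleotides such promoters can hold.
UGT1A1: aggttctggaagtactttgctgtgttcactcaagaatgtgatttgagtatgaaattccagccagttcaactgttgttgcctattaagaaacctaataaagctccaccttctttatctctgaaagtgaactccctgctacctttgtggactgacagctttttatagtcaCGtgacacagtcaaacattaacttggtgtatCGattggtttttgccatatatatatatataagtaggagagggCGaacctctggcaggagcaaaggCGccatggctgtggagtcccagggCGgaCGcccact
RGS13: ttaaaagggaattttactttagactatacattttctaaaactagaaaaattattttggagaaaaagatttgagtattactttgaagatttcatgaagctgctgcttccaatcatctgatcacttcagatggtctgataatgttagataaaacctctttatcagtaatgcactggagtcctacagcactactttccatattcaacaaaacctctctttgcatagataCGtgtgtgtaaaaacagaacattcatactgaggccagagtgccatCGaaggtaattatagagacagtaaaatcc
CXCL9: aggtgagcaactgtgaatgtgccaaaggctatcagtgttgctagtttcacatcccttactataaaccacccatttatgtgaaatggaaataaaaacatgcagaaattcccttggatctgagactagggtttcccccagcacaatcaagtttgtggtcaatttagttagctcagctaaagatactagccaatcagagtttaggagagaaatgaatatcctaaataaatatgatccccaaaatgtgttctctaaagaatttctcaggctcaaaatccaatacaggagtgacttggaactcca
CGA: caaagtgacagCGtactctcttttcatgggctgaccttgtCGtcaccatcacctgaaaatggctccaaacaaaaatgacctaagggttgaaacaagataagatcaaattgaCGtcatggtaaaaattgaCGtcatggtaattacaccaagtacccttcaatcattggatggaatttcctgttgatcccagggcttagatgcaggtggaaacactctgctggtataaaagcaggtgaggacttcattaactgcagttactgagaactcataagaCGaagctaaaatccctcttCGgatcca
These windows held 6, 2, 0 and 6 CG dinucleotides in the order printed, against a median of 22 over 15101 protein-coding promoters. The CGA window held 2 copies of TGACGTCA, the cyclic AMP response element for which this promoter is known, read on both strands. That motif was in 400 of the 15101 promoters (2.65%) and in 2 of the 72 promoters in selected bins.

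Promoters in the selected bins were poorer in CG than promoters at large, as were those of the other covered bins. The median number of CG dinucleotides was 3 in the 72 promoters of selected bins, 6 in the 2165 promoters of the other covered bins and 22 in all promoters. The GC content had medians of 43.8%, 53.3% and 63% in the same order. A CpG-rich promoter, taken as an observed-to-expected CG ratio of at least 0.6 with at least 50% GC, was found in 31.9% of the promoters in selected bins, 35.1% of those in the other covered bins and 64.0% of all. The letters TATAAA on either strand were in 23.6%, 18.9% and 9.71%. These shares describe the windows, and no test was made of them.

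Coverage of the selected bins averaged 26.2% over the 8 libraries with the EZH2 inhibitor and 68.3% over the 8 without it, a difference of -42.1 points. The other covered bins held 69.6% with the inhibitor and 76.1% without it, a difference of -6.47 points. In the EPZ libraries the selected bins were 21.0, 19.4, 24.5 and 33.4% covered on average. The combo libraries held 21.5, 27.2, 36.4 and 26.3%. By contrast the P38i libraries held 76.2, 65.6, 75.8 and 52.4%, and the control libraries 74.8, 76.8, 74.3 and 50.9%. All 8 libraries with the inhibitor lay below all 8 without it, an order that the choice of bins favours, and the lowest values without it were control replicate 4 and P38i replicate 4. Without those libraries the selected bins averaged 26.2% with the inhibitor and 73.9% without it (-47.7 points), and the other covered bins 69.6% and 79.4% (-9.79 points).

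The libraries also differed in total island length, which tended to rise with coverage of the selected bins among libraries with the inhibitor. Without the inhibitor, the short control replicate 4 and P38i replicate 4 were lowest. The other libraries there, of 570 to 656 Mb, held 65.6 to 76.8% with no steady rise. The part of length in the loss was not tested. Among libraries of like length, EPZ replicate 4 (571 Mb) and control replicate 3 (570 Mb) had 33.4% and 74.3% in the selected bins and 73.8% and 74.1% in the other covered bins. EPZ replicate 2 (472 Mb) and control replicate 4 (473 Mb) had 19.4% and 50.9% in the selected bins and 63.0% and 63.6% in the other covered bins. The gap in the selected bins is the one that chose them and is given as a description. The other covered bins hold most of the total length, so their agreement in pairs of like length is largely fixed. These pairs are examples, and nothing is read from them about the part of length.

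**Figure D1:**
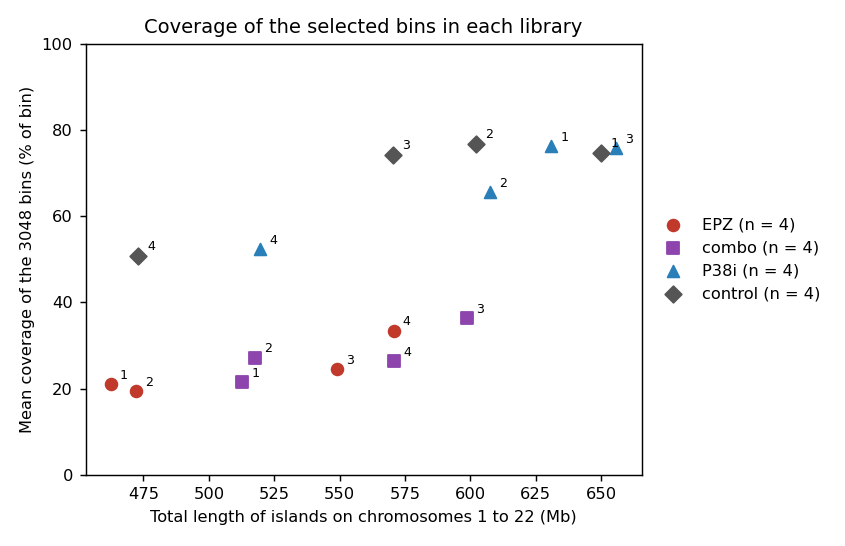
Mean coverage of the 3048 selected bins (percent of bin length) against the total length of islands on chromosomes 1 to 22 (Mb), 1 point per library with its replicate number, 4 libraries per group. EPZ and combo libraries lie between 19.4 and 36.4%, and P38i and control libraries between 50.9 and 76.8%, at overlapping island lengths.

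The loss was mostly partial. The median selected bin lost 62.0% of the length covered without the inhibitor, with a range of 36.1 to 100%. Bins with no island at all made up 30.6 to 44.2% of the selected bins in the EPZ libraries, 23.9 to 40.5% in combo, 1.61 to 8.56% in P38i and 1.54 to 7.55% in control. In 75 bins (2.46%) no EPZ or combo library had an island, and 994 (32.6%) were empty in at least 4 of those 8 libraries. At the other end, 180 bins (5.91%) were still at least 50% covered on average with the inhibitor.

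Single bins were noisy. The 8 libraries with the inhibitor lay wholly below the 8 without it in 150 selected bins (4.92%), against 0.227% of the 87730 bins of intermediate mean coverage, among which are all 3048 selected bins. Since the same contrast chose the bins, nothing is read from that pair of shares. Without control replicate 4 and P38i replicate 4 the groups were apart in 623 selected bins (20.4%), against 1.22% of the 87730. EPZ minus control was -35 points or lower in 2384 selected bins (78.2%), combo minus P38i in 1965 (64.5%), and both in 1301 (42.7%). The choice fixes the mean of the 2 differences at -35 points or lower in every bin, so nothing further is read from these counts. Only 2 bins had either difference above 0.

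Bins of intermediate coverage were selected most often, a pattern that the rule in part fixes. A bin just above 35% without the inhibitor must lose nearly all of its coverage to be selected. Among bins 35 to 50% covered without it, 384 of 10915 (3.52%) were selected, and among those 80 to 95% covered 706 of 19391 (3.64%). Among bins 50 to 65% covered without the inhibitor, 873 of 11075 (7.88%) were selected, and among those 65 to 80% covered 1042 of 12687 (8.21%). At 95% or more the count was 43 of 16423 (0.262%). The threshold cut through a continuum, with 355 selected bins that lost 35 to under 36 points and 385 bins outside that lost 34 to under 35. Just inside lay the bin of CRNN, which encodes the squamous epithelial protein cornulin, at chr1:152400001-152410000 with 27.3% in EPZ and combo and 62.3% in P38i and control. Just outside lay chr1:47710001-47720000, with 28.3% and 63.0%.

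The 2 bins with the deepest loss differed in content. The first, chr8:107770001-107780000, holds no protein-coding gene, and the nearest, RSPO2, is 124 kb away. This bin lost 77.5 points, but combo replicate 3 held 78% there, as did P38i replicate 3. The second, chr7:117360001-117370000, lies over ASZ1, a germ cell protein of the piRNA pathway. Its coverage was 6, 0, 18 and 6% in EPZ and 0, 24, 10 and 6% in combo, against 70, 98, 66 and 78% in P38i and 98, 100, 100 and 78% in control. The means were 8.75 ± 8.41% with the inhibitor and 86.0 ± 14.5% in its absence (SD, n = 8 each). The groups did not overlap, and no library with the inhibitor exceeded 24%.

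Of the next 8 bins by size of loss, 1 per run, 5 hold no protein-coding gene, among them the third largest loss, at chr1:73640001-73650000 (-75 points). In that bin combo replicate 4 held 72% and P38i replicate 4 had no island. The other 3 of the 8 bins lie over genes. The bin at chr3:150950001-150960000 overlaps CLRN1, which encodes clarin-1 of hair cells and photoreceptors. It was empty in all 4 EPZ libraries and in combo replicates 1, 2 and 4, with 36% in combo replicate 3. P38i libraries held 90, 52, 94 and 26% there, and control libraries 80, 100, 88 and 92%. Combo replicate 3 thus overlapped with P38i replicate 4 alone. The bin at chr2:166340001-166350000 overlaps SCN9A, a voltage-gated sodium channel of pain-sensing neurons. It held 0, 0, 38 and 0% in EPZ and 0, 42, 0 and 0% in combo, against 66, 90, 90 and 34% in P38i and 90, 98, 94 and 100% in control. P38i replicate 4 was again the library that overlapped with those given the inhibitor. CRB1, an apical polarity protein of the retina, had a bin at chr1:197250001-197260000 with 26, 0, 42 and 0% in EPZ and no island in any combo library. P38i libraries had 56, 78, 100 and 84% there, and control libraries 100, 100, 100 and 0%. Control replicate 4 was empty, so that the groups overlapped through that library. Without control replicate 4 and P38i replicate 4 the differences were -79.5 points at CLRN1, -78 at SCN9A and -80.5 at CRB1.

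The bins holding the 4 printed promoters lost 59.3 to 64 points. UGT1A1 (chr2:233760001-233770000) held 22, 0, 36 and 30% in EPZ and 0, 14, 58 and 0% in combo, against 100, 44, 100 and 90% in P38i and 92, 86, 100 and 60% in control. Combo replicate 3 overlapped with P38i replicate 2. RGS13 (chr1:192630001-192640000) held 24, 10, 0 and 0% in EPZ and 0, 30, 44 and 46% in combo, against 92, 72, 76 and 80% in P38i and 90, 66, 84 and 86% in control. Here the groups stood apart, with means of 19.3 ± 19.5% and 80.8 ± 9.0% (SD, n = 8 each). CXCL9 (chr4:76000001-76010000) was empty in every EPZ library and held 0, 32, 0 and 28% in combo, against 64, 48, 90 and 92% in P38i and 100, 88, 34 and 24% in control. Control replicate 4 lay below combo replicates 2 and 4. CGA (chr6:87090001-87100000) held 0, 0, 0 and 12% in EPZ and 22, 26, 36 and 0% in combo, against 100, 82, 84 and 34% in P38i and 92, 48, 82 and 48% in control. Combo replicate 3 and P38i replicate 4 were the only libraries that overlapped. Without control replicate 4 and P38i replicate 4 the differences were -67 points at UGT1A1, -60.75 at RGS13, -63.2 at CXCL9 and -69.3 at CGA. GABRR3, a rho subunit of GABA receptors, and LMO3, a LIM-only transcription cofactor, lost 58.3 and 58 points at their promoter bins.

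**Figure D2:**
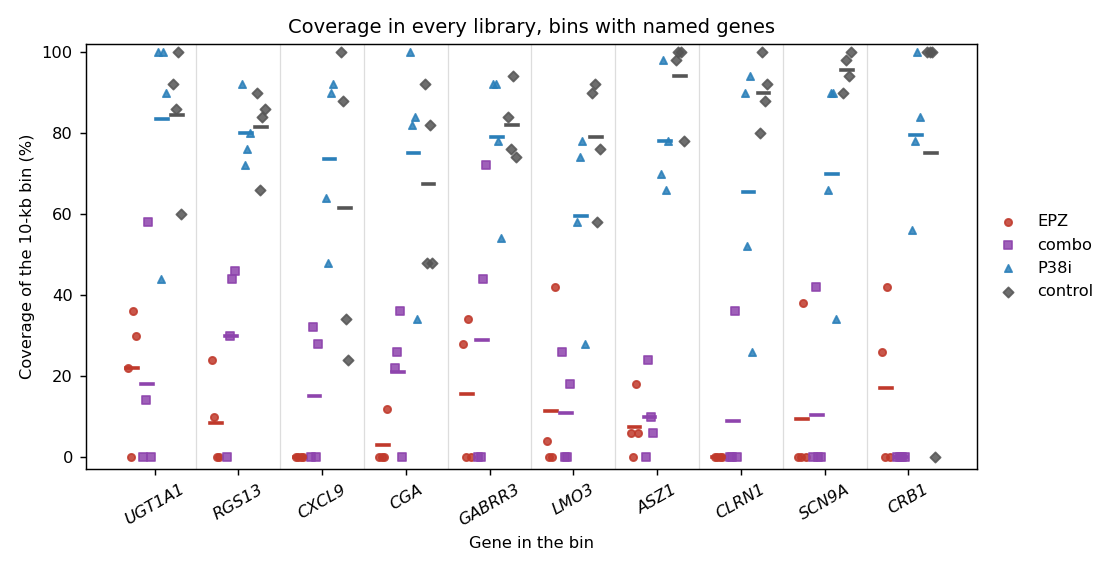
Coverage of the 10-kb bin (percent) over 10 named genes in each library; points are libraries and short bars are means of 4, with EPZ and combo left of P38i and control. The UGT1A1 to LMO3 bins hold the promoter, and the bins of ASZ1, CLRN1, SCN9A and CRB1 are among the 10 largest losses. Means with the inhibitor lie below those without it in each bin, and single libraries overlap in most.

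Few protein-coding genes lay wholly in selected bins. Of 19126 protein-coding genes, 669 (3.5%) had at least 1 selected bin, 57 had at least 50% of their span in such bins, and 17 their whole span. CD69, an early activation receptor of lymphocytes, lies in 2 selected bins. The bin at chr12:9750001-9760000, with 7.52 kb of the gene, held 22, 0, 0 and 6% in EPZ and 0, 0, 62 and 0% in combo, against 62, 52, 22 and 26% in P38i and 76, 84, 78 and 22% in control. The bin at chr12:9760001-9770000, with the other 0.901 kb, held 0, 0, 30 and 14% in EPZ and no island in combo, against 90, 42, 66 and 0% in P38i and 58, 100, 100 and 34% in control. The groups overlapped in both bins, and without control replicate 4 and P38i replicate 4 the differences were -51.1 and -70.5 points, against -41.5 and -55.75 with them. GPR65, a proton-sensing receptor of lymphocytes, also lies in 2 selected bins. At chr14:88000001-88010000 it was empty in all 4 EPZ libraries and held 34, 28, 20 and 76% in combo, against 64, 72, 76 and 14% in P38i and 74, 68, 68 and 42% in control. At chr14:88010001-88020000 it held 36, 60, 50 and 52% in EPZ and 76, 10, 38 and 12% in combo, against 74, 46, 78 and 76% in P38i and 96, 90, 92 and 62% in control. The EPZ libraries thus lay below the combo libraries in the first bin, and the 2 groups overlapped in the second. VIP, a neuropeptide, averaged 40 ± 24.0% with the inhibitor and 80.5 ± 12.9% in P38i and control (SD, n = 8 each). The beta-defensins DEFB113 and DEFB114 share 1 bin that lost 51 points, so they are not separate observations. The keratin KRT28, the olfactory receptors OR6C76, OR6C3 and OR6C75, and the testis gene TEX47 lost 39 to 44.5 points.

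Long genes had the most selected bins, and such genes also have more bins. Genes of at least 300 kb overlapped 18.9% of the selected bins and 19.4% of the other covered bins. The genes below were picked for their counts, and 4.32% of all covered bins were selected. PDE4D, a phosphodiesterase that degrades cyclic AMP, had 16 selected of 111 covered bins. ADGRV1, an adhesion receptor of hair cells, had 12 of 33, the ephrin receptor EPHA6 had 12 of 74, and the sarcoglycan SGCZ 12 of 92. CRB1 had 9 of 15 (60%). BMPR1B, a receptor for bone morphogenetic proteins, had 9 of 24, and the potassium channel KCND2 9 of 47.

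Among the gene lists, the voltage-gated sodium channels held the highest share. Of 115 covered bins over these genes, 20 were selected (17.4%), against 4.32% of covered bins in all. The genes were SCN9A, SCN1A, SCN3A, SCN2A and SCN7A, 5 of 12 with a covered bin, and they lie in 1 cluster on chromosome 2, so their bins are neighbours rather than separate loci. Germline genes had 11 of 79 (13.9%), in SYCP1 and SYCP2 of the synaptonemal complex, TDRD9, RNF17 and TEX15 of germ cell development, and the oocyte factor FIGLA. Neuronal genes had 73 of 1147 (6.36%), in 21 of 36 genes with a covered bin. This list shares SCN1A, SCN2A, SCN3A, KCND2 and GABRB2 with the channel and receptor lists, so their bins are counted again. Receptors for glutamate, GABA and glycine had 29 of 483 (6%), and potassium channels 32 of 616 (5.19%). Haematopoietic genes had 8 of 104 (7.69%), in CD69, GPR65, the B-cell factor IKZF3 and the stem cell factor LMO2. UDP-glucuronosyltransferases had 2 of 25 (8%), since 9 UGT1A genes share 1 bin and UGT2A1 and UGT2A2 share the other.

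Zinc finger genes had 16 of 278 (5.76%) and cadherins and protocadherins 14 of 247 (5.67%).

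Several other lists lay below the share of all covered bins. Developmental transcription factors had 8 of 193 (4.15%), in SOX6, SOX5, PAX5 and GATA4. Olfactory receptors had 8 of 420 (1.90%), cytochrome P450 genes 3 of 130, all in CYP7B1, and chemokines and their receptors 1 of 44, the CXCL9 bin. None of 31 serpin bins, 35 bitter taste receptor bins and 4 HOX bins was selected. Polycomb subunit genes (28 matched) and housekeeping genes (36 matched) had no bin at least 35% covered without the inhibitor, so none could be selected. Genes of the p38 MAP kinase pathway had 1 of 17 covered bins selected (5.88%), in the transcription factor gene MEF2C. Without control replicate 4 and P38i replicate 4, 5827 of 73172 covered bins were selected (7.96%), with 26 of 119 for sodium channels (21.8%), 18 of 81 for germline genes (22.2%) and 125 of 1202 for neuronal genes (10.4%). Against that share, developmental transcription factors lay above it (20 of 203, 9.85%) and cadherins and protocadherins below it (17 of 259, 6.56%). The lists were assembled with earlier results in view, and their shares were not tested.

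**Figure D3:**
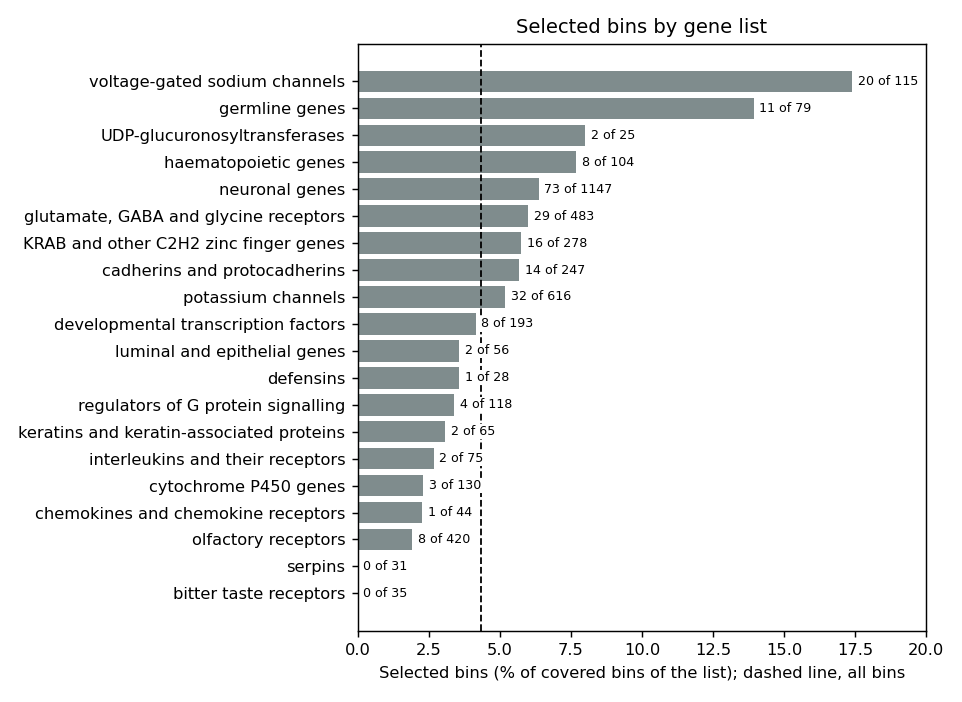
Selected bins as a percent of the bins at least 35% covered without the inhibitor that overlap the genes of each list, with the counts beside the bars and the 4.32% of all such bins as a dashed line. Lists with under 20 covered bins are not drawn; sodium channels (17.4%) and germline genes (13.9%) lie farthest to the right.

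The 3048 bins formed 2571 runs of adjacent bins, of which 2188 (85.1%) were a single bin and 3 were 5 bins long. Without control replicate 4 and P38i replicate 4, single bins were 3524 of 4491 runs (78.5%). Run lengths depend on the threshold, and since selected bins were removed from the flanks, the flanks had to lose less than the bins between them. The bins 10 kb away that were not themselves selected held 34.0% on both sides with the inhibitor, against 48.9 and 48.6% without it, differences of -14.9 and -14.6 points. At 100 kb the differences were -7.57 and -7.64 points. The run over FILIP1, a partner of filamin A, at chr6:75330001-75380000 averaged 12.1 ± 9.40% with the inhibitor and 59.6 ± 21.7% in P38i and control (SD, n = 8 each). The sides overlapped there, with 25.6% in P38i replicate 4 and 30.4% in EPZ replicate 4. The run over NPNT, an extracellular matrix ligand of integrins, at chr4:105930001-105980000 averaged 16.4 ± 4.18% and 56.9 ± 24.7%. There control replicate 4 was low at 15.2%, within the range of the libraries with the inhibitor. The run of 4 bins over HS3ST5, a heparan sulfate sulfotransferase, at chr6:114300001-114340000 averaged 21.5 ± 7.0% and 72.2 ± 19.5%.

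**Figure D4:**
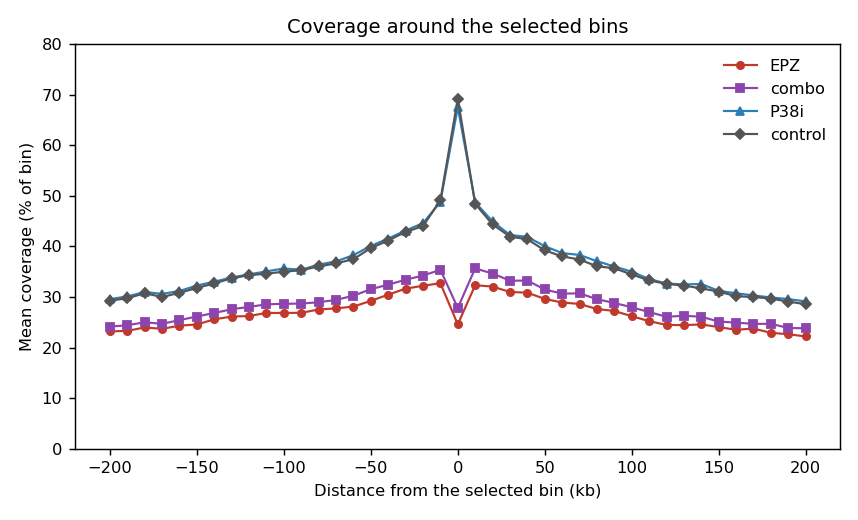
Mean coverage (percent of bin) at the selected bins and at bins up to 200 kb to either side that were not selected, 1 line per group of 4 libraries. P38i and control peak at the selected bin, where EPZ and combo dip below their own neighbours, a contrast that the choice of bins in part fixes, and EPZ and combo stay lower across the whole range.

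The island with the largest overlap of a selected bin was narrower with the inhibitor, and only that island was taken in each bin. Its median width over bins was 4.55 ± 0.930 kb in EPZ and combo libraries and 8.03 ± 2.22 kb in P38i and control libraries (SD, n = 8 each). In the other covered bins it was 10.5 ± 2.35 kb with the inhibitor and 13.8 ± 4.45 kb without it. Of the selected bins that had an island in a library, this island was at least 50 kb wide in 0.142% with the inhibitor and 1.14% without it. The shares were 8.85% and 13.1% of the other covered bins that had one. Width is tied to coverage and so to the choice of bins, and it was not tested.

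The selected bins were unevenly spread over chromosomes. Chromosome 4 held 432, or 11.9% of its covered bins, chromosome 2 held 358 (7.45%) and chromosome 6 held 264 (6.4%). Chromosome 19 held 2 (0.196%) and chromosome 20 held 9 (0.383%). Without control replicate 4 and P38i replicate 4 the shares were 20.5% on chromosome 4, 0.765% on chromosome 19 and 0.793% on chromosome 20, against 7.96% in all. Of 1450 windows of 2 Mb, 133 held 50% of the selected bins, and 309 held 50% of the covered bins. The selected bins number 3048 and the covered bins 70491. A smaller set falls into fewer windows by itself, so clustering is not read from these counts. The windows with the most were chr6:152000001-154000000, with 25 of 76 covered bins selected, over SYNE1, MYCT1 and VIP, and chr4:114000001-116000000, with 23 of 67, of which 8 lay in the heparan sulfate enzyme gene NDST4. The window chr2:166000001-168000000 with SCN1A, SCN7A and SCN9A had 22 of 103. Gene density was counted as midpoints of protein-coding genes within 500 kb of the bin centre, so a bin inside a long gene can count none. The share selected was 6.70% of covered bins with no such midpoint and 1.85% of those with at least 25. Of the selected bins 43.2% overlapped a protein-coding gene, against 39.7% of the other covered bins and 46.4% of all bins. A protein-coding promoter was in 2.68%, 3.41% and 4.97%. Of 1461 microRNA hairpins with a known position, 3 lay in selected bins (MIR5682, MIR6502 and MIR1258), which is 1.44% of the 208 hairpins in covered bins.

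**Figure D5:**
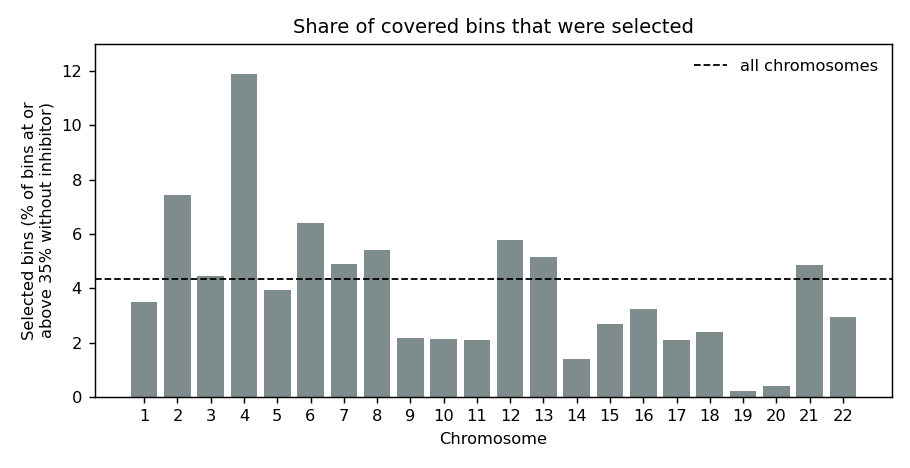
Selected bins as a percent of the bins at least 35% covered without the inhibitor, for each of the 22 autosomes, with all chromosomes together as a dashed line at 4.32%. Chromosome 4 is the highest bar at 11.9% and chromosome 19 the lowest at 0.196%.

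The p38 inhibitor gives comparisons that did not choose the bins, since each side of the choice holds as many libraries with it as without it. In limma fits over the 87730 bins with Benjamini-Hochberg adjustment, P38i and combo against control and EPZ called 2 bins higher (0.00228% of bins) and 0 lower, and none of the 3048 selected bins passed. The 2 bins called were chr1:78750001-78760000, with 86.8% in P38i and combo and 14% in control and EPZ, and chr2:90390001-90400000, with 100% in every combo library and 0 in the other 12 (limma adjusted p = 0.0300 for both). Neither was a selected bin, and the second was covered in combo only, not with the p38 inhibitor alone. The count was 0 with the replicate number as a block, 0 when covered length entered as a covariate and 0 with 5-kb bins, and it ranged from 0 to 4 with 1 library left out. The lowest adjusted p of a selected bin was 0.468. At an unadjusted p under 0.05 there were 141 selected bins (4.63%), against 6.78% of all bins tested. The median difference with the p38 inhibitor was 0.75 points in the selected bins and 3.25 points in all bins tested, with a median standard error of 11.6 points in the selected bins. Differences of that size were not detectable bin by bin with this spread.

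Among selected bins, chr1:86170001-86180000 had the lowest p. It averaged 64% in combo and 6.5% in EPZ, and 91.5% in P38i and 70% in control, a p38 inhibitor difference of 39.5 points (SE 9.40, limma adjusted p = 0.468). Over PRDM6, a transcriptional regulator of smooth muscle, the bin at chr5:123180001-123190000 averaged 71.5% in combo and 13.5% in EPZ, and 89% in P38i and 68% in control. Its difference was 39.5 points (SE 9.86, limma adjusted p = 0.498). At chr6:119520001-119530000 combo and EPZ had no island, and P38i held 0, 26, 0 and 0% against 90, 84, 66 and 48% in control, a difference of -32.75 points (SE 7.95, limma adjusted p = 0.493). None of these passed the threshold of 0.05. Over 25 bins named for their losses, including those of UGT1A1, RGS13, CXCL9 and CGA, the p38 inhibitor difference lay between -28.75 and 16.5 points, with limma adjusted p from 0.694 to 0.986.

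The interaction asks whether the fall with the EZH2 inhibitor differed between cells with and without the p38 inhibitor. It was called in 0 of the 87730 bins by limma after adjustment (lowest adjusted p among selected bins 0.999), with 3301 (3.76%) at an unadjusted p under 0.05, of which 126 were selected bins (4.13% of them). The bin chr2:90390001-90400000, which was covered in combo only and was not selected, fell just short. Its interaction was 100 points (limma adjusted p = 0.0599), with no spread within any group. The median interaction was 5.0 points in the selected bins and 0.5 points in all bins tested, with a median standard error of 23.2 points in the selected bins. The median difference was -39.5 points for combo minus P38i and -44.5 points for EPZ minus control. With this spread, a difference between the 2 falls of that size could not be detected in single bins.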

How the data were processed

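H3K27me3 ChIPmentation libraries from 16 samples, 4 per treatment, were used. Per the submitters' processing notes, which give no roles or order, the authors used SICER (a caller of enriched islands), Bowtie2 2.3.4.1, SAMtools 1.2, Picard, bedtools 2.28.0, cutadapt, Trim Galore and FastQC with hg38. The caller's settings, and whether IgG served as its control, were not given in the sources used here. The authors deposited 1 list of islands per library, with start and end only. Island starts fall on steps of 200 bases, and neighbouring islands of a library are merged or split by the caller's gap setting, so coverage moves with depth and settings; depth is unknown, and no interval from counts can be given.

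The percent of each 10-kb bin covered was computed and checked against bedtools 2.31.1 over 500 bins (largest difference 0). Bins with mean coverage from 5 to 95% entered limma 3.58.1 (R 4.3.3, trend and robust) in 1 fit of 4 groups, with Benjamini-Hochberg adjustment over all 87730 bins and a threshold of 0.05. In simulated data with 50 bins changed at each size, the p38 inhibitor fit recovered 6 at a mean change of 36.4 points, 28 at 51.8, 44 at 68.0 and 46 at 74.2. It also called 6 unchanged bins, with 86912 bins fitted in all. The changed bins had middle coverage, normal noise and no EZH2 inhibitor difference. Recovery in the selected bins, many with values of 0, may therefore differ. Genes and promoters came from RefSeq (GRCh38.p14); promoters and microRNAs of chromosome 8 were not used here. Coverage, lists and plots were computed in Python 3.11.15 with pandas 2.3.3, numpy 2.4.6 and matplotlib 3.10.9.

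The selected bins, gene lists, tests and alternatives were chosen with earlier results of these data known. Named were the 10 longest runs, the 10 bins with the largest losses (1 per run), genes under them, the 12 genes with the largest share of span selected, the 6 promoters with the largest losses, the 3 lowest p in each p38 comparison and bins at the threshold; the text gives a part of these. Genes with the most selected bins, list members and 2-Mb windows were added after their values were seen. Replicates with the same number did not deviate together in every pair (correlations -0.0684 to 0.0860), so no pairing was used. The alternatives were other bin sizes, coverage filters, scales, island widths, loss thresholds and libraries left out.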

Additional observations from a re-analysis of the deposited data

Results flagged for a closer look

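Within the groups of 4 libraries, 96 sets of values were screened for a library far from the other 3, and 6 were marked. Some bins, such as that of CXCL9, were screened more than once, so the 96 hold repeats, while the 6 do not. The screen used Dixon's critical value at 95%, which by its construction marks about 1 in 20 groups of normally distributed values. In the selected bins as a whole, control replicate 4 averaged 50.9% against 74.3 to 76.8% in the other control libraries, and 54.5% of its selected bins were at least 50% covered, against 84.6 to 87.3%. In P38i replicate 4, 8.56% of the selected bins had no island, against 1.61 to 1.67% in the other P38i libraries. These libraries also had the shortest total island length of their groups, 473 Mb and 520 Mb, and the part of this in their values was not tested.

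In single bins, EPZ replicate 4 held 12% at CGA, where the other EPZ libraries held 0, and 42% at LMO3, where they held 0 to 4%. Combo replicate 3 held 24% at OR6C3, against 0 to 4% in the other combo libraries.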

How the results depend on the processing

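The number of selected bins, 3048, depended on bin size and threshold. It was 10587 with 5-kb bins, 666 with 20-kb bins, 5364 at 30 points and 1631 at 40 points. Leaving out control replicate 4 and P38i replicate 4 together, an alternative chosen after seeing the data, gave 5827, which held 2980 of the 3048. That alternative removes low libraries only from the side without the inhibitor, so a larger number follows in part from it. Leaving out 1 library at a time gave 2719 (P38i replicate 3) to 4150 (control replicate 4), with 2462 to 2953 of the selected bins kept. With the median difference of 2.5 points between the sides removed, 2228 bins were selected, and 3141 with islands of at least 2 kb.

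The p38 inhibitor called 2 bins by limma. It called 0 with covered length as a covariate, 0 with the replicate number as a block, 1 with islands of at least 2 kb, 0 with 5-kb bins and 0 without both replicates 4, and 0 to 4 with 1 library left out. The interaction called 0, and 1 with any coverage allowed, 1 on the arcsine scale, 1 with 20-kb bins and 0 to 2 with 1 library left out; the replicate block gave 0. The cause of these changes was not tested. No selected bin was called for either in any of 26 settings. So few of all bins were called (0.00228% for the p38 inhibitor in the main fit) that nothing is read from this. Read depth is unknown, which limits how firmly the absence of an island can be read in any library.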
